A study of Homo sapiens with 11 samples.

Results

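Aminoacyl-tRNA synthetases are the enzymes that join each amino acid to its transfer RNA. The genes described here are 39 rows of a count table of 27671 genes, chosen by symbol: 20 enzymes of the cytosol, 16 nuclear-encoded enzymes of mitochondria and 3 scaffold proteins, AIMP1, AIMP2 and EEF1E1. All 39 were found, and all 39 passed the filter on low counts that left 15591 genes tested. The table uses older names without a final 1 for the cytosolic enzymes, so that CARS charges cysteine tRNA in the cytosol and CARS2 does so in mitochondria.

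Human cells run separate sets of these enzymes for cytosolic and mitochondrial protein synthesis, and both sets are encoded in the nucleus. GARS and KARS serve both compartments from alternative forms of 1 gene and are counted here with the cytosolic enzymes. Several cytosolic enzymes sit together with the scaffold proteins in the multi-synthetase complex. When eIF2 is phosphorylated, the integrated stress response raises translation of ATF4, a transcription factor whose known targets include genes of amino acid supply and several cytosolic synthetases. ISRIB acts on eIF2B and blunts that response.

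Transcripts were counted in HEK293T, an established line from human embryonic kidney that expresses SV40 large T antigen (the growth protocol writes HEK293). Cells were given the vehicle DMSO (n = 3), DMSO with ISRIB (n = 2), 10 µM of the compound A8 (n = 3) or A8 with ISRIB (n = 3). Treatment lasted 8 h according to the titles but 4 h according to the treatment protocol, and which one applies is unknown. All groups are of 1 cell line, the ISRIB dose is not in the labels, and the submitters left out a further library of DMSO with ISRIB for poor quality. The series calls its replicates biological.

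The 11 libraries held 34072107 to 35318111 counts each, and each member had between 258 and 22609 counts in every library. Levels are CPM, that is counts relative to the library's total, corrected by TMM for differences in library composition. Library 3 of A8 with ISRIB had the lowest scaling factor, 0.938. Markers of neural and kidney-lineage genes known from HEK cells were detected in all libraries, the neural NEFL among them at 63.6 to 76.7 CPM. Others were low, namely neural ENO2 at 1.88 to 4.61 CPM and kidney-lineage PAX2 at 0.99 to 2.14 CPM. Kidney-lineage LHX1 reached at most 3.35 CPM. Of 14 markers of other cells, 13 stayed below 2 CPM in every library, and PTPRC, CD3E, PECAM1 and KRT5 had 0 counts in all. The exception was COL1A1 at 15.7 to 21.2 CPM. The 14 markers summed to 19.4 to 22.4 CPM in vehicle, 18.1 to 19.3 with ISRIB, 16.7 to 18.9 with A8 and 18.5 to 19.99 with both, and their part in the results was not tested. In bulk RNA, fewer cells with a transcript and less of it per cell cannot be told apart.

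To compare levels between genes, CPM was divided by transcript length. In vehicle, cytosolic enzymes had a median of 98.1 CPM per kb, against 21.2 CPM per kb for mitochondrial enzymes. FARSA, the catalytic subunit of phenylalanyl-tRNA synthetase, was at the top with 304.0 CPM per kb, followed by SARS (serine) at 193.6 and TARS (threonine) at 165.2 CPM per kb. CARS had the lowest level of the cytosolic enzymes, 27.6 CPM per kb. Of the 20 cytosolic enzymes, 13 lay above TARS2, the most abundant mitochondrial enzyme at 66.1 CPM per kb, and PARS2 (mitochondrial proline) was lowest of all with 5.4 CPM per kb. KARS at 160.7 and YARS at 154.8 CPM per kb are neighbours in that order whose vehicle libraries overlapped. The scaffold genes ranged from 9.7 CPM per kb for EEF1E1 through 12.7 for AIMP1 to 96.4 for AIMP2. FARSA and FARSB encode subunits of 1 enzyme, yet FARSB stood at 56.6 CPM per kb.

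**Figure D1:**
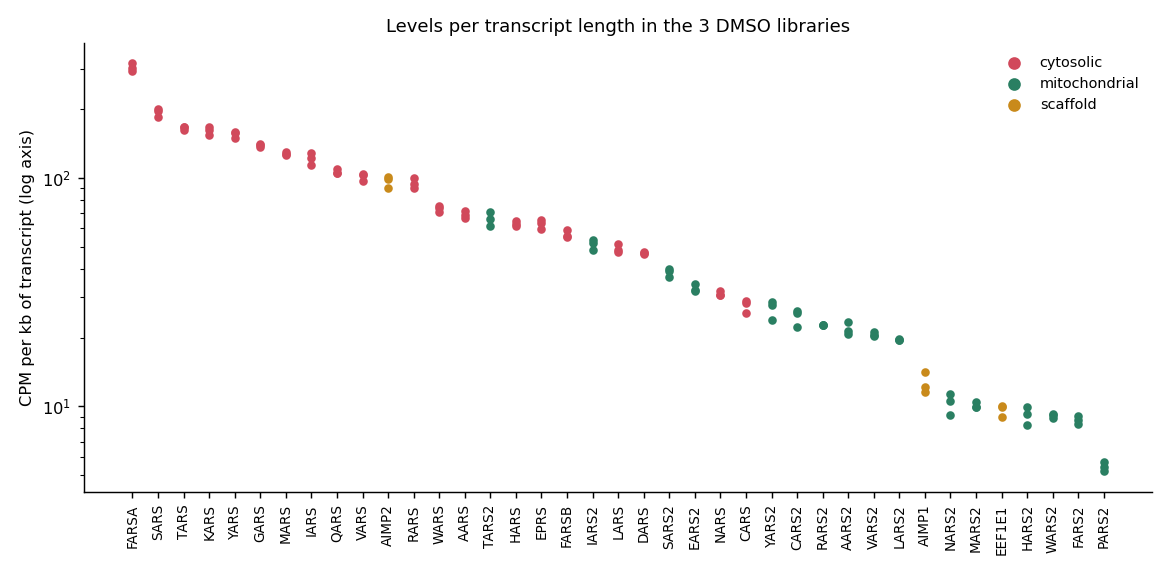
Level per transcript length (CPM per kb, log axis) of the 39 genes in vehicle, ordered by mean. Each point is 1 of the 3 DMSO libraries; cytosolic enzymes lead the order, from FARSA at 304.0 CPM per kb, and PARS2 is lowest at 5.4.

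Because ATF4 with a C/EBP partner is known to bind an element with the core TGATGNAA, promoter windows of RefSeq (GRCh38.p14, 250 bases before to 50 after each annotated start) were searched for that core on both strands. Windows were found for 33 of the 39 genes. The core was present in 7 of 16 cytosolic genes (43.8%), 1 of 14 mitochondrial genes (7.14%) and 0 of 3 scaffold genes. It was present in 4.46% of all 27305 genes with a window. Of the 10860 of them whose symbol matched a gene tested here, 2.68% had it. Genes with another symbol in the count table, most cytosolic enzymes included, are outside those 10860. The stretches are shown because they include CARS and GARS, the enzymes that rose with A8, and the single mitochondrial match for contrast. Each is 30 bases on the strand of the gene, with the core in capitals; TTGCATCA is TGATGCAA read on the other strand.
CARS, chr11:3057407-3057436, minus strand: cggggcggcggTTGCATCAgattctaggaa
GARS, chr7:30594834-30594863, plus strand: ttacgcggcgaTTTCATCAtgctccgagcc
AARS, chr16:70289675-70289704, minus strand: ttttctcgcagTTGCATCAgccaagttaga
MARS, chr12:57488053-57488082, plus strand: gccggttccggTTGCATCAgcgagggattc
NARS, chr18:57621804-57621833, minus strand: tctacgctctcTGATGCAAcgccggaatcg
IARS, chr9:92293692-92293721, minus strand: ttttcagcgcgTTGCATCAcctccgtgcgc
TARS, chr5:33440956-33440985, plus strand: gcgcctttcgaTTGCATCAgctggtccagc
YARS2, chr12:32756076-32756105, minus strand: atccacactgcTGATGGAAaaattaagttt

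In 6 of the 7 cytosolic genes the match was the same 8 letters, TGATGCAA in either orientation, a form held by 1.08% of all genes with a window. That form was singled out after the matches were seen. GARS instead had TTTCATCA, at -33 from one of its 2 annotated starts. Counted from the annotated start as +1, the first base of the match lay at -2 in CARS, -4 in MARS, -13 in IARS, +3 in TARS and +15 in NARS, close to the start, and at -187 in AARS and -197 in YARS2. No window was at hand for YARS, LARS, DARS and VARS among the cytosolic genes. The related CRE core TGACGTCA was found in AIMP2 among the 33 genes, and the E-box CACGTG in IARS, CARS2, EARS2, MARS2 and AIMP2. Of all genes with a window, 2.25% and 8.77% had these motifs. Among those whose symbol matched a gene tested, the shares were 3.64% and 12.5%. A match describes letters in a window, and binding was not measured in this series.

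A8 was first set against vehicle, to see which synthetase transcripts the compound changed. CARS and GARS rose, and most other cytosolic enzymes lay slightly higher with A8 without passing the test. Mitochondrial enzymes were spread evenly around no change. With edgeR's quasi-likelihood test and Benjamini-Hochberg adjustment over all genes, 2 of 39 members were called higher and none lower, where 0.0834% of all genes tested were called higher and 0.0577% lower. DESeq2 called 6 members, all cytosolic and all higher, and 0.607% of the 21240 genes to which it gave a p-value. The DESeq2 shares below use these 21240 genes, with or without an adjusted p, apart from that of the authors' own table.

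CARS, which charges cysteine tRNA, measured 76.1, 77.6 and 69.0 CPM in vehicle and 103, 104 and 100.4 CPM with A8. All 3 A8 libraries lay above all 3 vehicle libraries. CARS rose 1.38-fold, or 0.46 on the log2 scale (SE 0.07, edgeR adjusted p = 0.00496). GARS, which charges glycine tRNA in both compartments, measured 371, 358 and 365 CPM in vehicle and 492, 436 and 461 CPM with A8. Again the groups did not overlap, and GARS rose 1.27-fold, or 0.34 on the log2 scale (SE 0.06, edgeR adjusted p = 0.017). The call for GARS was lost without A8 library 1 or 3 or without vehicle library 2, with adjusted p up to 0.166 over all alternatives. CARS was called under all 15 alternatives run.

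SARS, the seryl-tRNA synthetase, came next in size. Its vehicle libraries stood at 373, 367 and 344 CPM and its A8 libraries at 460.3, 408 and 434 CPM. The groups were apart, yet the log2 fold change of 0.26 (SE 0.06, edgeR adjusted p = 0.124) did not pass. MARS, which charges methionine tRNA for initiation and elongation, measured 368, 376 and 365 CPM in vehicle and 458, 421 and 435 CPM with A8. Its log2 fold change was 0.24 (SE 0.05, edgeR adjusted p = 0.0987). For YARS, the tyrosyl-tRNA synthetase, vehicle libraries gave 512, 509 and 482 CPM and A8 libraries 611, 600.5 and 577 CPM. The log2 fold change was 0.25 (SE 0.05, edgeR adjusted p = 0.0859), again with no overlap. In the authors' deposited table of A8 against vehicle, AARS, CARS, GARS, MARS and YARS had an adjusted p under 0.05. They were among 65 such genes there, 0.475% of the 13671 with an adjusted p.

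KARS, which like GARS serves both compartments, did not follow it. Its vehicle libraries stood at 369.6, 358 and 339.6 CPM and its A8 libraries at 358, 338 and 362 CPM. These ranges overlapped, and the log2 fold change was -0.01 (95% interval -0.13 to 0.11). The ratio of GARS to KARS was 1.001 to 1.075 in vehicle and 1.274 to 1.375 with A8.

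**Figure D2:**
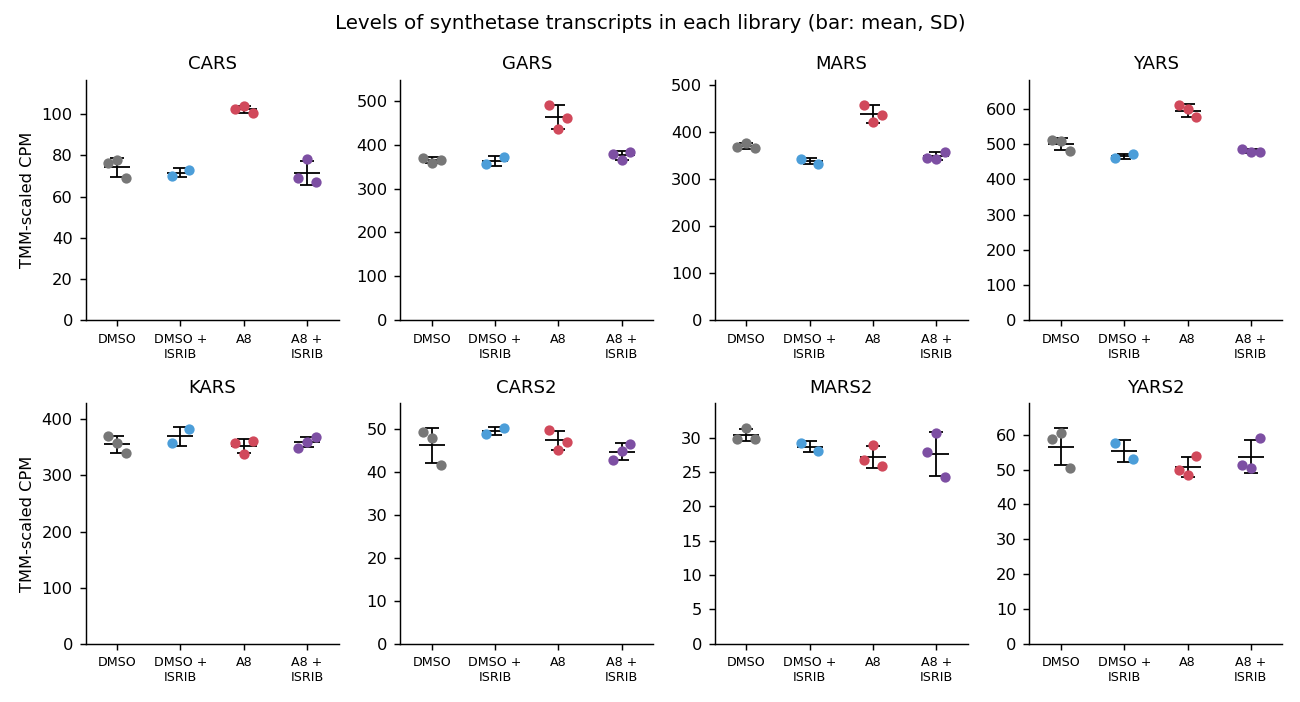
TMM-scaled CPM of 5 cytosolic enzymes and 3 mitochondrial counterparts in each of the 4 groups. Points are libraries and bars mean and SD; A8 libraries of CARS lie at 100.4 to 104 CPM against 69.0 to 77.6 CPM in vehicle, while the A8 libraries of KARS and CARS2 overlap those of vehicle.

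As a group, 15 of 20 cytosolic enzymes had a log2 fold change above 0 in A8 against vehicle, with a median of 0.17, where the median of all genes tested was 0.01. All 3 A8 libraries lay above all vehicle libraries for 14 of the 20, which held for 8.47% of all genes, and below them for FARSA and HARS (8.13% of all genes). Of the 20, 13 were higher at an unadjusted p under 0.05, against 4.9% of all genes, and FARSA alone was lower, against 5.34%. AARS (alanine, 0.26), EPRS (glutamate and proline, 0.22), NARS (asparagine, 0.20), LARS (leucine, 0.19), IARS (isoleucine, 0.17), TARS (threonine, 0.16), QARS (glutamine, 0.14) and FARSB (0.14) made up the rest of the 13 beside CARS, GARS, SARS, MARS and YARS. FARSA had a log2 fold change of -0.16 (SE 0.06, edgeR adjusted p = 0.398), the opposite sign to FARSB, the other subunit of its enzyme. WARS (tryptophan) at 0.11 and HARS (histidine) at -0.08 had A8 libraries apart from vehicle but no unadjusted p under 0.05. DARS at 0.07, RARS at -0.02 and VARS at -0.04 had overlapping libraries, as did KARS.

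The 16 mitochondrial enzymes gave a median log2 fold change of -0.01, with 8 above and 8 below 0, and none was called by edgeR or by DESeq2. At an unadjusted p under 0.05, 1 of the 16 was higher and 0 lower, beside 4.9% and 5.34% of all genes. That 1 was RARS2, the arginine enzyme. It measured 41.0, 41.4 and 41.5 CPM in vehicle and 46.0, 43.9 and 47.5 CPM with A8, without overlap. The log2 fold change was 0.15 (SE 0.07, edgeR adjusted p = 0.48). For MARS2, the methionine enzyme, vehicle libraries gave 29.9, 31.5 and 29.9 CPM and A8 libraries 26.8, 28.96 and 25.9 CPM. All A8 libraries were below vehicle, with a log2 fold change of -0.16 (SE 0.09, edgeR adjusted p = 0.554). RARS2 was the 1 of 16 entirely above vehicle and MARS2 the 1 entirely below, beside 8.47% and 8.13% of all genes. YARS2, the tyrosine enzyme, measured 58.8, 60.5 and 50.4 CPM in vehicle and 49.9, 48.4 and 53.9 CPM with A8. Its groups overlapped, and the log2 fold change was -0.16 (SE 0.08, edgeR adjusted p = 0.538).

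The scaffold genes were not called by edgeR or by DESeq2, and 0 of 3 had an unadjusted p under 0.05. AIMP1 stood at 29.3, 30.8 and 35.8 CPM in vehicle and 33.7, 30.4 and 35.9 CPM with A8, which gave 0.06 on the log2 scale (95% interval -0.15 to 0.27). AIMP2 measured 121, 123 and 110.2 CPM against 115, 108 and 116 CPM, which gave -0.06 (95% interval -0.21 to 0.09). EEF1E1, the member lowest in CPM before division by length, was at 7.36, 8.21 and 8.14 CPM in vehicle and 8.75, 8.93 and 8.04 CPM with A8. This gave 0.12 and the widest interval of the 3, -0.11 to 0.34. In each of these genes the libraries of both groups overlapped. Cytosolic enzymes inside the complex had a median of 0.16 (8 genes) and those outside it 0.18 (12 genes). The catalytic classes were also close, at 0.18 for class I and 0.15 for class II, each with 10 genes.

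For 15 pairs of a cytosolic and a mitochondrial enzyme of the same amino acid, the log2 fold change with A8 was larger for the cytosolic member in 11, with a median difference of 0.14. The largest differences were those of CARS over CARS2 at 0.43, YARS over YARS2 at 0.41 and MARS over MARS2 at 0.40. The exceptions were HARS, RARS, VARS and FARSA. In CPM, CARS stood at 1.54 to 1.66 times CARS2 in the vehicle libraries and 2.06 to 2.30 times with A8. Summed over each class, cytosolic transcripts made up 5877.0 to 6024.2 CPM in vehicle and 6417.6 to 6663.5 CPM with A8. The mitochondrial sum lay between 988.7 and 1024.4 CPM in all 11 libraries. These are sums per library and carry no test.

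The next question was what remained of the change when ISRIB was present. In A8 with ISRIB against DMSO with ISRIB, which shares no library with the comparison above, cytosolic enzymes had 10 members above and 10 below 0 and a median log2 fold change of 0.00. No member was called by edgeR or by DESeq2, where 0.0128% and 0.32% of all genes were. An unadjusted p under 0.05 was met by 4 of 39 members (AARS, VARS and VARS2 higher, RARS2 lower) and by 8.32% of all genes. CARS was at 70.1 and 73.0 CPM with ISRIB alone and at 69.0, 78.1 and 66.9 CPM with A8 and ISRIB, a difference of 0.00 on the log2 scale (95% interval -0.17 to 0.16). GARS was at 355 and 371 CPM and at 378, 365 and 384 CPM, a difference of 0.05 (95% interval -0.09 to 0.19). Both genes overlapped between these groups. AARS had the largest value of the cytosolic enzymes, 0.16 (SE 0.06, edgeR adjusted p = 0.54). Its libraries with ISRIB alone, at 224 and 211 CPM, lay below all vehicle libraries, with a log2 fold change of -0.14 against vehicle. Such a position below vehicle held for 2349 of the 15591 genes tested. With both agents against vehicle AARS stood at 0.02. Mitochondrial enzymes had a median of -0.02 and scaffold genes of -0.09.

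**Figure D3:**
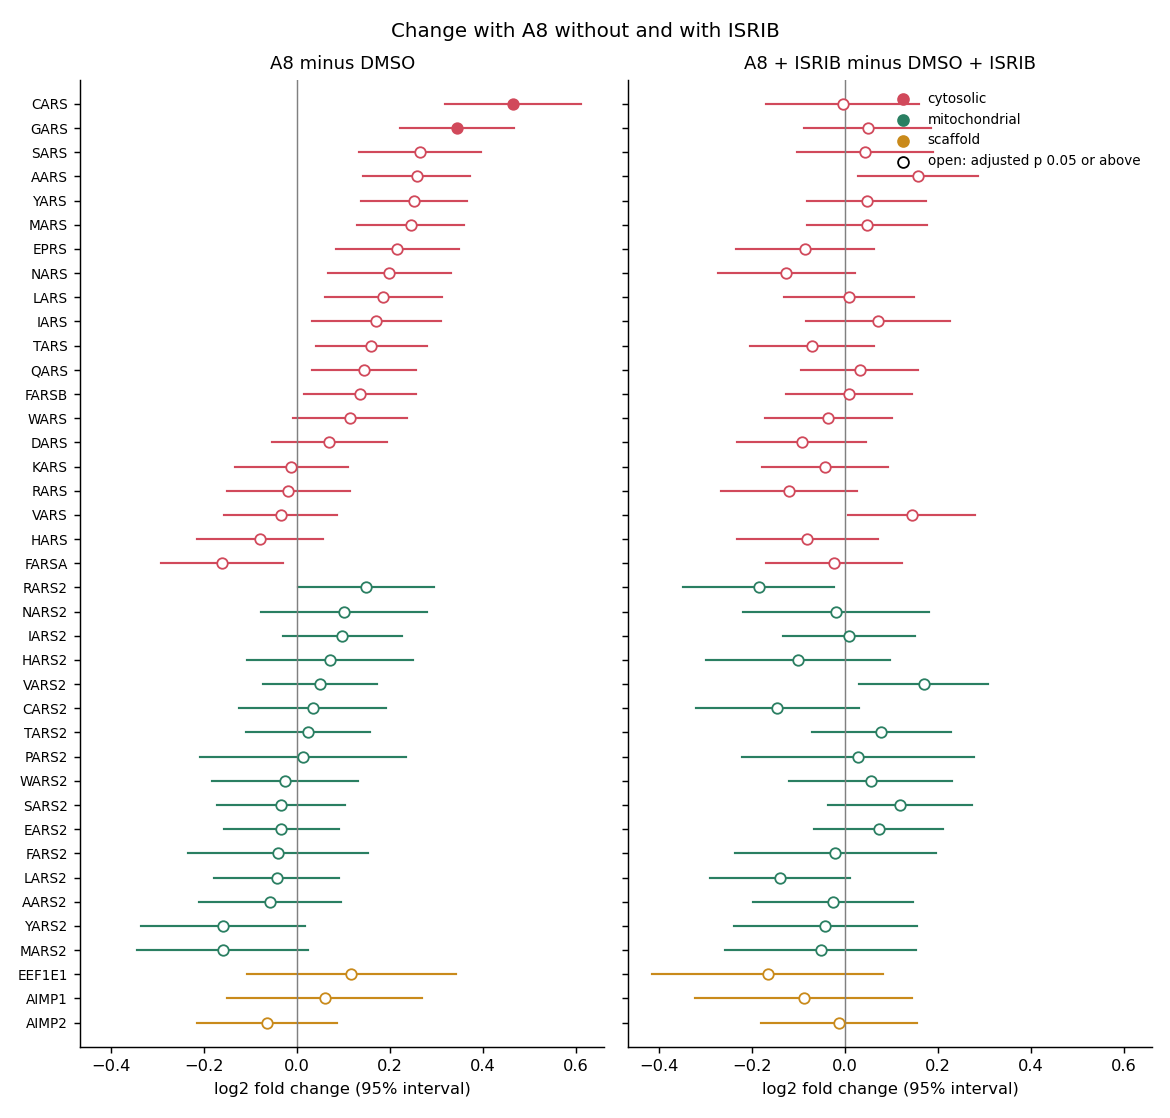
Log2 fold change with 95% interval of each of the 39 genes for A8 minus DMSO (left) and A8 with ISRIB minus DMSO with ISRIB (right), in the order of the left panel within each class. Filled circles passed an adjusted p of 0.05, namely CARS at 0.46 and GARS at 0.34 on the left and none on the right.

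The difference between those 2 effects, the interaction, was below 0 for 18 of 20 cytosolic enzymes, with a median of -0.16 beside -0.01 over all genes. CARS had an interaction of -0.47 (SE 0.10, edgeR adjusted p = 0.241), and no member was called by edgeR, where 0.0257% of all genes were. DESeq2 called CARS, with an adjusted p of 0.0156, and 0.24% of all genes. At an unadjusted p under 0.05, 8 cytosolic enzymes were lower, namely CARS, NARS, EPRS, GARS, TARS, SARS, YARS and MARS, and RARS2 among the mitochondrial ones at -0.33, against 3.44% of all genes. Mitochondrial enzymes had a median interaction of 0.03.

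With A8 present, adding ISRIB lowered CARS, MARS, YARS and GARS. This comparison shares its A8 libraries with A8 against vehicle, so both sets of values are given side by side and neither supports the other. It called 4 members lower and none higher, all cytosolic, where 0.16% of all genes were called lower and 0.0192% higher. DESeq2 called 6 members and 0.25% of all genes. CARS fell from 103, 104 and 100.4 CPM to 69.0, 78.1 and 66.9 CPM, by 0.52 on the log2 scale (SE 0.07, edgeR adjusted p = 0.00112). MARS fell from 458, 421 and 435 CPM to 344, 343 and 357 CPM, by 0.33 (SE 0.05, edgeR adjusted p = 0.0116). YARS fell from 611, 600.5 and 577 CPM to 488, 478 and 479 CPM, by 0.31 (SE 0.05, edgeR adjusted p = 0.0179). GARS fell from 492, 436 and 461 CPM to 378, 365 and 384 CPM, by 0.30 (SE 0.06, edgeR adjusted p = 0.0445). In all of them the libraries with ISRIB lay below those without it. Only CARS stayed called without A8 library 1, without A8 with ISRIB library 1 or 2, and when only these groups were fitted. The call for GARS was also lost without A8 library 3 and that for YARS without A8 library 2. Of 15 alternatives run, CARS was called in all, MARS in 9, YARS in 8 and GARS in 7.

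Across the class, 11 of 20 cytosolic enzymes had every library with ISRIB below every A8 library, beside 5.98% of all genes, and the median was -0.12. At an unadjusted p under 0.05, 10 of the 20 were lower, beside 3.18% of all genes. The cytosolic enzymes closest to no change were FARSA at 0.02 and KARS at 0.03, and KARS measured 349.6, 359.97 and 368 CPM with both agents. Mitochondrial enzymes had a median of -0.01 with none called, and RARS2 alone passed an unadjusted p of 0.05, at 46.0, 43.9 and 47.5 CPM with A8 and 40.5, 40.9 and 40.9 CPM with both. MARS2 was at 28.0, 30.7 and 24.3 CPM and YARS2 at 51.4, 50.5 and 59.1 CPM with both agents, overlapping A8 alone. SARS measured 354, 366 and 389 CPM with both agents, below its A8 libraries, with a log2 fold change of -0.23 (SE 0.06, edgeR adjusted p = 0.387). The scaffold genes overlapped A8 alone and had log2 fold changes between -0.02 and 0.00. With both agents AIMP1 stood at 28.7, 36.2 and 34.8 CPM, AIMP2 at 113, 102 and 123 CPM and EEF1E1 at 7.75, 8.40 and 9.24 CPM.

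**Figure D4:**
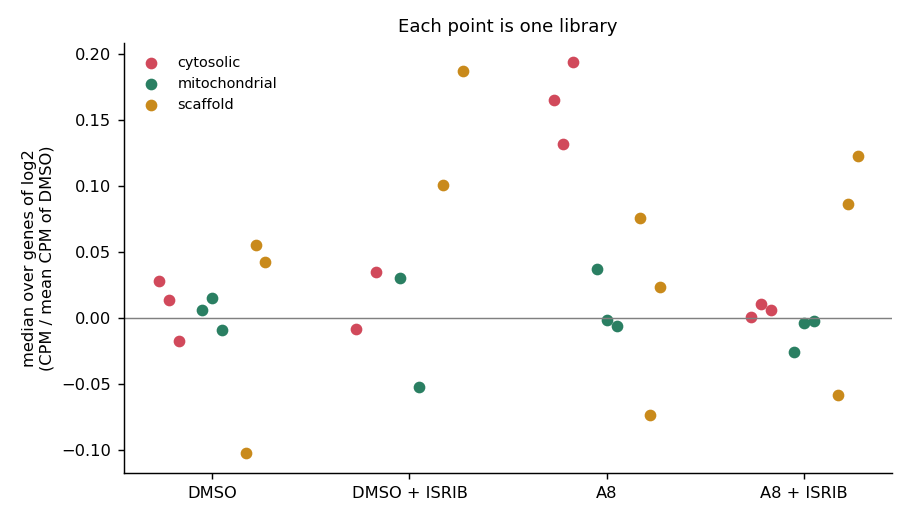
Median over the genes of each class of the log2 ratio of CPM to the vehicle mean, 1 point per library and class. Cytosolic medians of the A8 libraries lie at 0.13 to 0.19 and those of A8 with ISRIB at 0.00 to 0.01, while mitochondrial medians stay between -0.05 and 0.04; scaffold medians rest on 3 genes.

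ISRIB alone against vehicle called no member by edgeR or by DESeq2, where 0% and 0.235% of all genes were called. At an unadjusted p under 0.05, 5 of 39 members were higher and 3 lower, beside 4% and 5.59% of all genes. The higher ones were FARSB (0.17), RARS2 (0.17), EPRS (0.15), RARS (0.15) and EEF1E1. The lower ones were VARS2 (-0.18), AARS (-0.14) and MARS. Of the 15591 genes tested, 2349 had both ISRIB libraries below every vehicle library and 2168 had both above. Among the named enzymes, MARS measured 342 and 333 CPM with ISRIB, below its vehicle libraries, with a log2 fold change of -0.13 (SE 0.06, edgeR adjusted p = 0.51). YARS measured 461 and 471 CPM, with a log2 fold change of -0.10 (SE 0.06, edgeR adjusted p = 0.594), and SARS 357 and 361 CPM, inside its vehicle range. KARS was at 358 and 382 CPM, RARS2 at 43.1 and 49.7 CPM, MARS2 at 29.3 and 28.1 CPM and YARS2 at 57.5 and 53.0 CPM. EEF1E1 had the largest value of all members, 0.26 (SE 0.12, edgeR adjusted p = 0.502), at 9.47 and 9.51 CPM, above its 3 vehicle libraries. AIMP1 stood at 34.3 and 36.4 CPM and AIMP2 at 117 and 111 CPM. Class medians were 0.01 for cytosolic, -0.02 for mitochondrial and 0.14 for scaffold genes.

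A8 with ISRIB against vehicle also called no member, by edgeR or by DESeq2, where 0.0192% and 0.151% of all genes were called. FARSA at -0.14 and FARSB at 0.18 were the 2 members past an unadjusted p of 0.05, beside 7.7% of all genes. The median was 0.02 for cytosolic and -0.02 for mitochondrial enzymes. The log2 fold change of CARS was -0.06 (95% interval -0.20 to 0.09) and that of GARS 0.04 (95% interval -0.08 to 0.17).

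Cytosolic enzymes were also described by the promoter core printed above, with no test, since groups and values come from the same genes. The 7 cytosolic genes with the core had A8 against vehicle log2 fold changes of 0.16 (TARS) to 0.46 (CARS) and a median of 0.24. In all 7 the A8 libraries lay above vehicle, beside 8.47% of all genes. The 9 genes with a window and no match had a median of 0.11 and ran from -0.16 (FARSA) to 0.26 (SARS). Of these 9, 5 lay entirely above vehicle and 2 entirely below, beside 8.47% and 8.13% of all genes. The ranges overlapped, since SARS at 0.26 and EPRS at 0.22 had no match. For A8 with ISRIB against A8 the medians were -0.24 and 0.02. YARS, called in that comparison, had no window to search. The mitochondrial gene with the core, YARS2, had the opposite sign in A8 against vehicle, at -0.16 (95% interval -0.33 to 0.02). Its libraries overlapped between those groups.

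**Figure D5:**
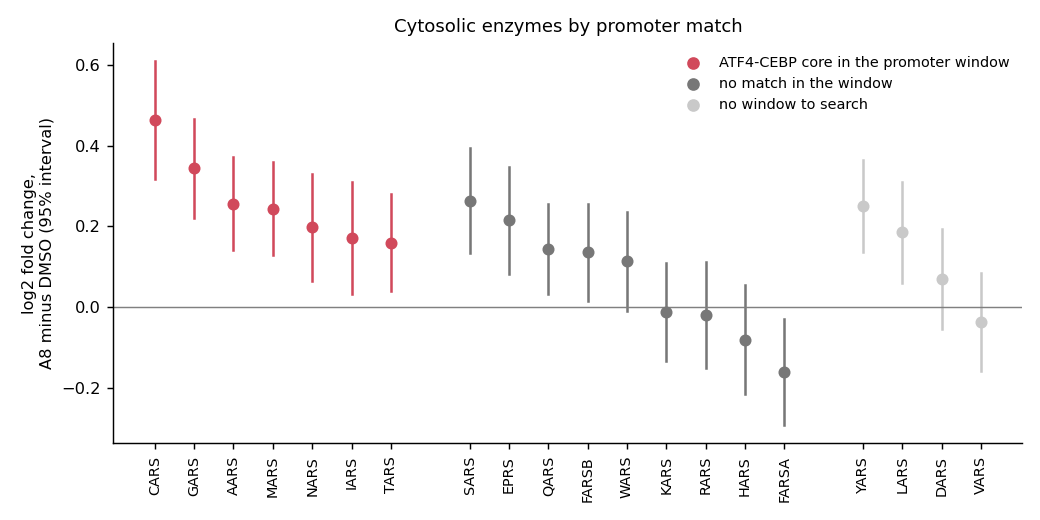
Log2 fold change of A8 minus DMSO with 95% interval for the 20 cytosolic enzymes, grouped by whether the promoter window held the ATF4 and C/EBP core. Genes with the core run from 0.16 to 0.46, those without from -0.16 to 0.26, and 4 genes had no window.

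Other genes of the pathway were taken from lists. Of 16 genes of amino acid supply in the integrated stress response, 4 were called higher with A8 and none lower, beside 0.0834% and 0.0577% of all genes, and the median was 0.36. They were ASNS, the asparagine synthetase (0.70, edgeR adjusted p = 4.46e-05), PSAT1 of serine synthesis (0.53), CTH of cysteine synthesis (0.85) and the glycine transporter SLC6A9 (0.99). ASNS measured 161, 163 and 149 CPM in vehicle and 280.2, 242 and 249 CPM with A8. With ISRIB added to A8, 9 of the 16 were called lower, beside 0.16% of all genes, with a median of -0.49. ISRIB alone against vehicle also left 15 of the 16 below 0, with a median of -0.16 and none called. At an unadjusted p under 0.05, 9 of these were lower, beside 5.59% of all genes. With both agents against vehicle, 15 lay below 0 and 1 was called lower, where 0.0192% of all genes were called. Of 20 genes of tRNA charging and use, edgeR called none in A8 against vehicle, and 1 was higher and 0 lower at an unadjusted p under 0.05, beside 4.9% and 5.34% of all genes. It was XPOT, the tRNA export receptor, at 0.24 (edgeR adjusted p = 0.207), with 119, 128 and 137 CPM in vehicle and 151.1, 153 and 151.1 CPM with A8. Of 77 genes named MRPL or MRPS, which encode mitochondrial ribosomal proteins apart from the antisense RNA MRPL23-AS1, edgeR called none, 8 were lower and 0 higher at an unadjusted p under 0.05, beside the same 5.34% and 4.9% of all genes, and the median was -0.05.

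Some members share bases with a neighbour in GENCODE, and whether the authors counted by strand is not given in the sources used here. MARS overlaps DDIT3, which encodes the stress factor CHOP, on the opposite strand. DDIT3 stood at 4.39, 4.47 and 4.10 CPM in vehicle and 6.09, 5.47 and 5.03 CPM with A8, without overlap. Its log2 fold change was 0.36 (SE 0.12, edgeR adjusted p = 0.343), beside 0.24 for MARS, which is the more abundant in CPM. YARS overlaps S100PBP, HARS overlaps HARS2 and AIMP2 overlaps EIF2AK1, also on opposite strands. On the same strand, VARS2 shares 1858 bases with GTF2H4 and SARS2 shares 1492 bases with AC011455.2. Counting by strand would not separate these. Several members also have pseudogene copies that could share reads, among them CARSP1 and CARSP2 for CARS, GARSP1 for GARS and KARSP1 for KARS, and none of these copies is a row of the table. Their part in the results was not tested.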

How the data were processed

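Polyadenylated RNA was sequenced from dUTP strand-specific libraries on a DNBSEQ instrument, per the labels' protocols. The authors deposited raw counts for 27671 gene symbols in 11 libraries. The build was GRCh37 and DESeq and DESeq2 are named, per the submitters' processing notes. What aligner, counter and strand setting were used is not given in the sources used here. The authors also deposited DESeq2 tables, which per the file headers give log2 values and adjusted p-values of their own fit; their largest log2 difference from the present fit over the members was 0.0021.

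Counts were tested with edgeR 4.0.16 in R 4.3.3: filterByExpr, TMM, 1 quasi-likelihood fit of all 11 libraries, and Benjamini-Hochberg adjustment over 15591 genes, called at an adjusted p under 0.05. Checks on simulated data preceded the fit. DESeq2 1.42.0 was an alternative. A count of 0 allows up to 0.0849 to 0.088 CPM (3 counts, counting error only). The column numbers of DMSO with ISRIB do not match those in the titles, so these columns were assigned to the group only. Transcript lengths and neighbours come from GENCODE v29 and windows from RefSeq, by symbol, with no coordinates on the files' build.

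The members and lists were chosen with earlier results of these data known. Named in full are called members, the 3 cytosolic and 3 mitochondrial enzymes with the largest change with A8, GARS, KARS and the scaffold; others are named as examples after their values were seen. Other alternatives were DESeq2 size factors, no filter, at least 50 summed counts, only the groups compared, a replicate block, a GC offset (a GC value for 88% of genes), the cytosolic class without GARS and KARS, each library left out and, chosen after seeing the data, a fit of the 9 numbered libraries.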

Additional observations from a re-analysis of the deposited data

How the results depend on the processing

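No called value changed sign among 822 alternative values. Counts and class medians stayed within 1.5 times or the replicate spread in 198 of these and left it in 52, and single members kept their side of the threshold in 538, lost it in 26 and gained it in 8. A8 against vehicle called 2 members, but 6 with DESeq2, 5 without a filter, 5 with the GC offset (cytosolic median 0.133, mitochondrial 0.0277) and 1 to 2 with each library left out (medians 0.1447 to 0.1888 and -0.0111 to 0.0113). A8 with ISRIB against A8 called 4, but 1 in a fit of only those groups and 1 to 4 with each library left out (medians -0.1518 to -0.1071 and -0.0282 to 0). With each library left out, cytosolic and mitochondrial medians were -0.0084 to 0.037 and -0.0507 to 0.0307 for ISRIB, -0.0353 to 0.0231 and -0.0409 to 0.0199 for A8 with ISRIB against ISRIB, -0.0089 to 0.0215 and -0.0214 to -0.0132 for both agents against vehicle, and -0.1974 to -0.1283 and 0.0023 to 0.0671 for the interaction. The GC offset gave cytosolic medians of -0.0033 for ISRIB, -0.0043 for both agents against vehicle and -0.1261 for the interaction, whose mitochondrial median was -0.0042. DESeq2 called 1 member, CARS, in the interaction. The causes were not tested. Same-numbered libraries correlated at -0.133 to 0.138 in their deviations, so little deviation was shared by number. Differently numbered libraries were not compared, so whether the numbers pair the samples is unknown. With the replicate block, A8 against vehicle and A8 with ISRIB against A8 each called 1 member (CARS). The same held with the replicate block and GC offset together. Medians were then 0.1325 (cytosolic) and 0.0251 (mitochondrial) for A8 against vehicle, and -0.0051 (cytosolic) for both agents against vehicle. With 2 or 3 libraries per group, small changes can go uncalled, also where the 95% interval leaves out 0. In A8 against vehicle, AARS (0.14 to 0.37, edgeR adjusted p = 0.0751) and SARS (0.13 to 0.39, edgeR adjusted p = 0.124) are examples.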
